A study of Mus musculus with 17 samples.

Results

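The expression of 9 genes that mark the CA3 and CA2 fields of the hippocampus was followed in mice that lack functional CBP in forebrain excitatory neurons. Bok, Coch, Cpne4 and Tspan18 were taken as CA3 markers, and Pcp4, Amigo2, Map3k15, Rgs14 and Necab2 as CA2 markers. The genes were chosen by name as markers of these fields, with earlier results of these data known. They are 9 of the 55471 genes in the table of raw counts, and each had at least 1 count in every library. The 17 libraries were made from total RNA of the hippocampus of C57BL/6 mice (C57BL/6J in the methods), 3 to 6 months old, and 8 came from Control and 9 from CBP-ifKO mice. CBP-ifKO mice carry floxed Crebbp alleles and a creERT2 transgene under the Camk2a promoter, and they express a truncated CBP, the lysine acetyltransferase encoded by Crebbp, once tamoxifen has been given. Controls were littermates that, by the methods of the study, lacked the transgene, although the labels name the creERT2 line for them too, and both genotypes received 5 doses of tamoxifen. Esr1, the gene of the oestrogen receptor, a part of which is fused to cre in creERT2, had 41 to 77.8 normalized counts in the control libraries and 703 to 941 in the CBP-ifKO libraries. Sal mice had saline and no kindling. PTZ0 mice had the kindling injections of PTZ on alternate days and ended with saline. PTZ (pentylenetetrazol) is a GABA-A receptor antagonist that provokes seizures. PTZ45 mice had the same injections and ended with PTZ at 45 mg/kg, a week after kindling. Their hippocampi were removed 45 min later. The paper reports that no CBP-ifKO mouse reached the stage of progressive seizures. Kindling and kindled below therefore refer to these injections, in either genotype. There were 2 libraries of Control PTZ45 and 3 of each other group. The methods describe a saline sample of this experiment as the hippocampus of 1 male mouse. For the kindled samples no source used here says whether each is a separate animal, so their p-values measure the spread between samples, which may be technical.

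CA3 pyramidal cells receive the mossy fibres of the dentate gyrus and excite CA1 pyramidal cells and each other. CA2 is the small field between CA3 and CA1. Its pyramidal cells are known for resisting the induction of long-term potentiation at their inputs from CA3 and for a role in social memory. Both fields are part of the excitatory forebrain in which the Camk2a promoter drives creERT2, while interneurons, glia and the choroid plexus are not. The libraries hold RNA of the whole hippocampus, so fewer cells of a type and less RNA per cell cannot be told apart in any value below.

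Total counts per library were between 5831992 and 18735643. No 2 replicates were copies of 1 library: over the 16 replicate pairs the chi-square statistic divided by its degrees of freedom ranged from 2.31 to 18.01. The targeted gene separated the genotypes: Crebbp in the CBP-ifKO libraries was at 55.9% ± 4.38 of the control mean (SD, n = 9), with every CBP-ifKO library below every control library. The libraries were sequenced on 3 lanes. Control Sal and Control PTZ0 shared lane 3, Control PTZ45 and CBP-ifKO Sal shared lane 4, and CBP-ifKO PTZ0 and CBP-ifKO PTZ45 shared lane 5. Within a treatment, therefore, the 2 genotypes were always on different lanes, and genotype and lane cannot be told apart there. In 5 libraries the summed normalized count of 6 choroid plexus markers was between 10805 and 44309, against 415 to 1124 in the other 12. These were Control Sal replicate 2, Control PTZ0 replicate 2, CBP-ifKO Sal replicate 1, CBP-ifKO PTZ0 replicate 3 and CBP-ifKO PTZ45 replicate 2. Normalized counts are raw counts divided by the DESeq2 size factor of the library, and results that rest on these 5 libraries are given with and without them.

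Compared per kilobase of exon, in normalized counts, the most abundant members in controls were Necab2 at 297 ± 19.1 and Pcp4 at 297 ± 32 (SD, n = 8), whose levels did not differ beyond their spread. Cpne4 followed at 254 ± 17.9, then Bok at 223 ± 35.3 and Rgs14 at 210.3 ± 15.5 (SD, n = 8 for each), and neither neighbour of Bok differed from it by more than its SD. Amigo2 stood at 124 ± 15.9, more than its SD away from its neighbours on both sides. The least abundant were Coch at 31.5 ± 6.67, Tspan18 at 24.5 ± 3.09 and Map3k15 at 9.37 ± 2.76 (SD, n = 8), and the gap between Coch and Tspan18 was barely larger than the SD of Coch. In CBP-ifKOs Pcp4 was highest at 266 ± 34.7 per kilobase, followed by Bok at 215 ± 38.3, Necab2 at 192 ± 18.3 and Cpne4 at 187 ± 16.2 (SD, n = 9). Necab2 thus lay below Pcp4 by more than either SD, and Rgs14 at 98.3 ± 15.1 and Amigo2 at 103 ± 12.2 (SD, n = 9) did not differ beyond their spread. Raw counts of Map3k15 ran from 20 to 166 per library, the lowest of the set, and its values carry the largest counting error.

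Rgs14, Necab2 and Cpne4 were lower in CBP-ifKOs in every treatment, and Amigo2 was lower over all treatments together. Rgs14 fell most, to 46.7% of the control mean. Map3k15 was called higher, and Bok, Coch, Tspan18 and Pcp4 did not pass the test. Over all 17 libraries, with treatment as a term, DESeq2 called 4 of the 9 members lower at an adjusted p under 0.05, where 11.5% of all genes tested were called lower, and 1 member higher, where 7.76% were. The median log2 fold change of the 9 was -0.16, against 0.01 over all genes tested. By field, 1 of the 4 CA3 markers was called lower, with a median log2 fold change of -0.04, and 3 of the 5 CA2 markers were called lower and 1 higher, with a median of -0.26. Without the 5 libraries rich in choroid plexus RNA, 4 members were called lower and none higher, where 7.86% of genes were called lower. The medians of the CA3 and CA2 markers were then -0.24 and -0.29. The CA3 median moved mainly through Coch, which went from 0.05 to -0.38 and was not called. Still 1 of the 4 CA3 markers and 3 of the 5 CA2 markers were called lower.

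**Figure D1:**
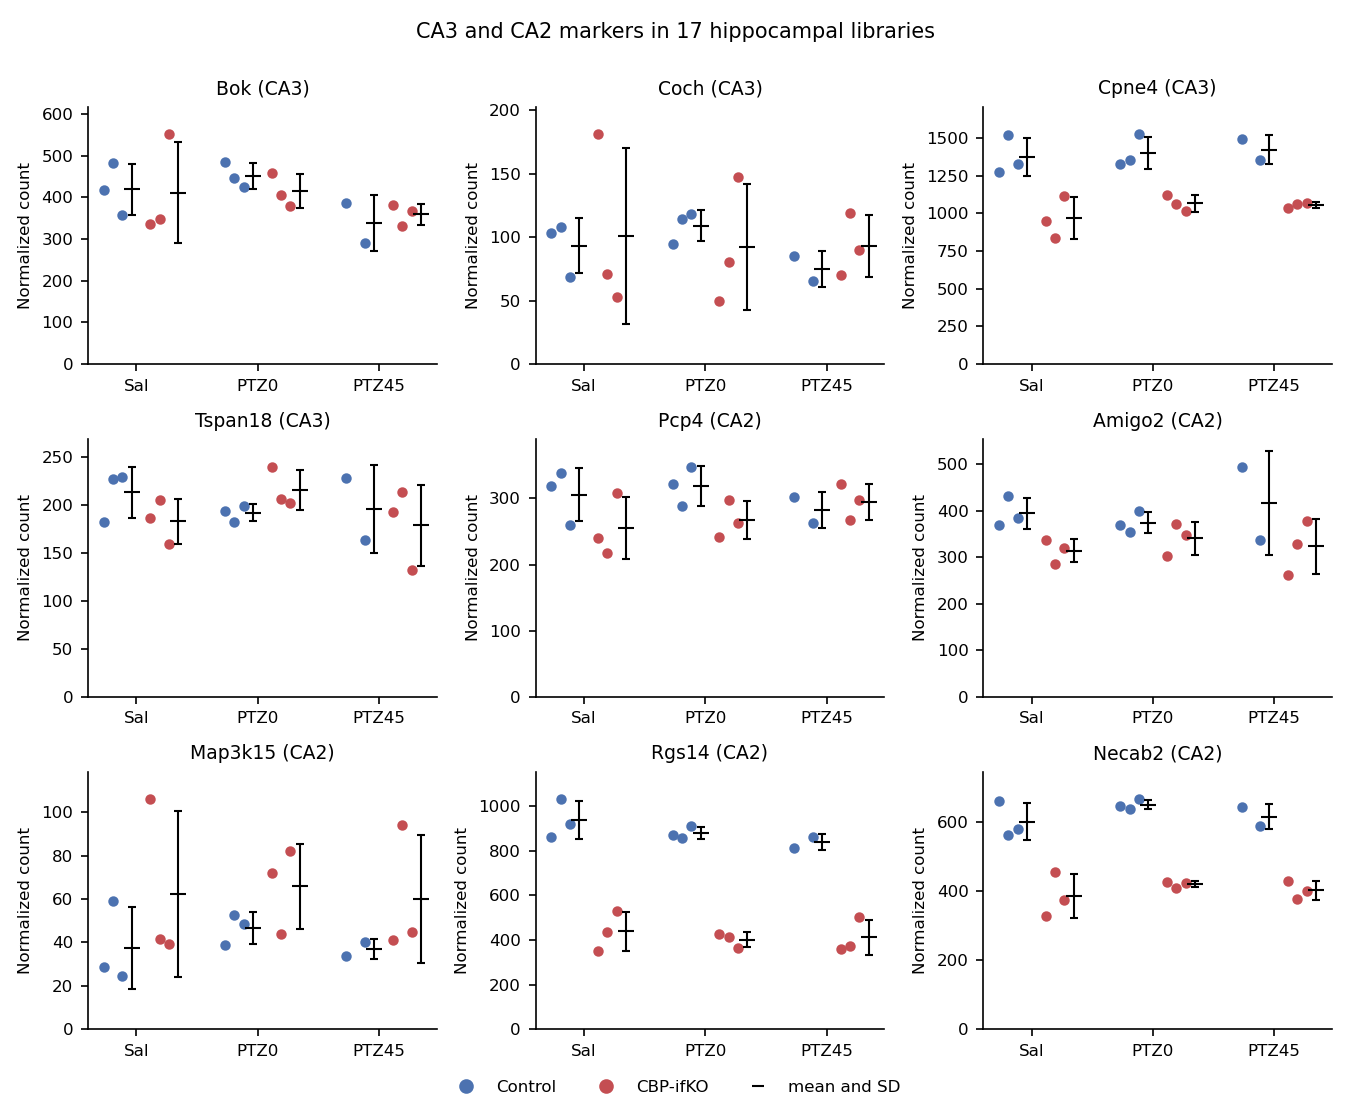
Normalized counts of the 9 markers in each of 17 libraries, by treatment (x axis) and genotype (Control blue, CBP-ifKO red), with the mean and SD of each group in black and every y axis starting at 0. The Rgs14, Necab2 and Cpne4 points of the 2 genotypes do not overlap, whereas those of Bok, Tspan18 and Pcp4 do.

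Rgs14 encodes a scaffold protein with an RGS domain that limits synaptic plasticity in CA2 pyramidal cells. It (ENSMUSG00000052087, protein coding, chromosome 13, 55369732 to 55384687 in GRCm38, plus strand) had 862, 1031 and 921 normalized counts in the Control Sal libraries and 351, 434 and 528 in CBP-ifKO Sal. In PTZ0 the controls had 871, 859 and 912 and the CBP-ifKOs 426, 414 and 364. In PTZ45 the values were 812 and 864 in controls and 359, 371 and 502 in CBP-ifKOs. The highest CBP-ifKO library thus lay well below the lowest control library in each treatment. By DESeq2 the log2 fold change over treatments was -1.09 (SE 0.08, adjusted p 2.25e-43), and none of 28 alternatives ended this call. Within treatments it was -1.10 (SE 0.14, adjusted p 4.59e-12) in Sal, -1.14 (SE 0.09, adjusted p 1.39e-29) in PTZ0 and -1.03 (SE 0.15, adjusted p 8.66e-10) in PTZ45, all by DESeq2.

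Necab2 encodes a neuronal EF-hand calcium-binding protein. It (ENSMUSG00000031837, protein coding, chromosome 8, 119446719 to 119472640, plus strand) had 662, 563 and 579 normalized counts in Control Sal and 327, 454 and 373 in CBP-ifKO Sal. In PTZ0 the controls had 647, 638 and 666 and the CBP-ifKOs 427, 409.6 and 424. In PTZ45 the controls had 643 and 590.0 and the CBP-ifKOs 429, 376 and 401. The genotypes did not overlap in any treatment, and the CBP-ifKO level over all was 64.6% ± 6.15 of the control mean (SD, n = 9). By DESeq2 the genotypes differed by -0.65 on the log2 scale (SE 0.06, adjusted p 8.87e-28), with -0.67 in Sal, -0.63 in PTZ0 and -0.62 in PTZ45, each of them called. Its exons are rich in GC, and a correction for GC content moved the log2 fold change to -0.53.

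Cpne4 encodes a copine, a protein that binds membrane phospholipids in the presence of calcium. This CA3 marker (ENSMUSG00000032564, protein coding, chromosome 9, 104547286 to 105034544, plus strand) had 1276, 1518 and 1327 normalized counts in Control Sal and 951, 836 and 1114 in CBP-ifKO Sal. In PTZ0 the controls had 1329, 1354 and 1524 and the CBP-ifKOs 1124, 1062 and 1012. In PTZ45 the controls had 1491 and 1355 and the CBP-ifKOs 1035, 1059 and 1071. Again no CBP-ifKO library reached the lowest control library, and the mean level was 73.7% ± 6.38 of control (SD, n = 9). For all treatments together DESeq2 gave -0.44 on the log2 scale (SE 0.05, adjusted p 1.67e-14), with -0.50 in Sal, -0.40 in PTZ0 and -0.43 in PTZ45, each of them called.

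For these 3 genes all 9 CBP-ifKO libraries lay below all 8 control libraries, a pattern shown by 2.16% of the genes tested. The same 3 were the only members that DESeq2 called within a treatment. Of all genes tested, 1.77% were called lower in Sal, 5.25% in PTZ0 and 2.82% in PTZ45. In Sal, Cpne4 was not called without Control Sal replicate 2 (adjusted p 0.115), with a log2 fold change of -0.42. In PTZ45 neither Necab2 (-0.55, adjusted p 0.178) nor Cpne4 (-0.36, adjusted p 0.303) was called by DESeq2 without Control PTZ45 replicate 1, a fit that leaves 1 control library and assumes that it varies like the CBP-ifKO libraries. In the libraries with little choroid plexus RNA, Rgs14 remained called in each treatment. Necab2 was then called in PTZ0 and PTZ45 but not in Sal, where its log2 fold change was -0.61 (adjusted p 0.065), and Cpne4 in PTZ45 (adjusted p 0.0369) but not in Sal (0.543) or PTZ0 (0.0786, all by DESeq2), with log2 fold changes between -0.38 and -0.43 for Cpne4.

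RefSeq (GRCm38.p6) gave 7 promoters for 6 of the 9 members, each of 300 bases, from 250 before to 50 after a transcription start. Bok, Coch, Pcp4, Amigo2 and Necab2 had 1 each and Cpne4 had 2. Those of Necab2 and Cpne4 are shown because both genes were lower in every treatment, and that of Pcp4 as a CA2 marker that was not called. All are on the plus strand and read 5′ to 3′, and capitals mark a match, on either strand, to the full cAMP response element (CRE) TGACGTCA, its core TGACG, the AP-1 site TGANTCA or the TATA box TATAAA.
Necab2, chr8:119446469-119446768: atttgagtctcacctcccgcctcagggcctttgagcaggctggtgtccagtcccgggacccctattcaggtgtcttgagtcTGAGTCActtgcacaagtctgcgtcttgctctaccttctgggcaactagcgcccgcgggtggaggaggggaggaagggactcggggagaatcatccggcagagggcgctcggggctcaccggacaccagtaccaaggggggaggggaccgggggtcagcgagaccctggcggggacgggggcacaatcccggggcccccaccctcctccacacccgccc
Cpne4, first start, chr9:104569405-104569704: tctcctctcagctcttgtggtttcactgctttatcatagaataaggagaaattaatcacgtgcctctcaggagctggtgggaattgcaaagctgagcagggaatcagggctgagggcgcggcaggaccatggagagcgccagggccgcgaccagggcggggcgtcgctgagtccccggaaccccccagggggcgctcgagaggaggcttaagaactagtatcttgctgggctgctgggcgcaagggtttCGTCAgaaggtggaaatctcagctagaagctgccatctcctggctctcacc
Cpne4, second start, chr9:104587808-104588107: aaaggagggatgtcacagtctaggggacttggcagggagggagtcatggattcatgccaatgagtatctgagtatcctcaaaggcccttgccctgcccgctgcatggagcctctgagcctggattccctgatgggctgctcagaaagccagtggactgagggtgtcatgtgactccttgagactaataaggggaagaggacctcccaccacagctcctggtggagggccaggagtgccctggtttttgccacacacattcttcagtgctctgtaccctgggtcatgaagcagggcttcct
Pcp4, chr16:96467356-96467655: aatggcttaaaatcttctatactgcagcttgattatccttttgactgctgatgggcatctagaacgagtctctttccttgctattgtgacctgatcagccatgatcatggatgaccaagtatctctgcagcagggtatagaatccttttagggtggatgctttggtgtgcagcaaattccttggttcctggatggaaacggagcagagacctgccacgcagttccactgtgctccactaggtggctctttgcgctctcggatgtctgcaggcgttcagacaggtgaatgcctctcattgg

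None of the 7 promoters held the full CRE, which 1.79% of the 32851 RefSeq promoters of this length hold. The core TGACG, which is part of the full CRE, was found in the first Cpne4 promoter alone, on the minus strand with its first base at -1 from the start, and 20.8% of all promoters hold it. Necab2 alone held an AP-1 site, TGAGTCA, with its first base at -169 from the start, against 7.81% of all promoters. A TATA box, in 13.6% of all promoters, was found in Coch alone, within the transcribed part. An E-box, CANNTG, was found in both Cpne4 promoters, in Pcp4 and in Necab2, where there were 2, and in 72.3% of all promoters. These matches describe letters in a window and were not tested as binding sites.

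Amigo2, which encodes an adhesion protein with leucine-rich repeats and an immunoglobulin domain, showed a smaller difference. The gene (ENSMUSG00000048218, protein coding, chromosome 15, 97244125 to 97247287, minus strand) had a lowest, median and highest level of 337, 376 and 494 normalized counts in the 8 control libraries and of 261, 329 and 378 in the 9 CBP-ifKO libraries. The ranges overlapped, and 6 of the 9 CBP-ifKO libraries lay below every control library. Across treatments DESeq2 gave -0.26 on the log2 scale (SE 0.08, adjusted p 0.0115). It was -0.31 in Sal, -0.13 in PTZ0 and -0.37 in PTZ45, none of which was called (adjusted p 0.269, 0.648 and 0.448 by DESeq2). The highest control value, 494, was that of Control PTZ45 replicate 1, and without this library the log2 fold change was -0.19 and not called (adjusted p 0.068 by DESeq2).

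Pcp4 encodes a small calmodulin-binding protein (also PEP-19) that is abundant in CA2. This gene (ENSMUSG00000090223, protein coding, chromosome 16, 96467606 to 96525793, plus strand) had a lowest, median and highest level of 260.4, 310.1 and 348 normalized counts in controls (n = 8) and of 218, 267 and 322 in CBP-ifKOs (n = 9). The ranges overlapped widely, although 3 CBP-ifKO libraries lay below every control library. Across treatments its log2 fold change was -0.16 with a 95% interval from -0.32 to 0.00 (adjusted p 0.175 by DESeq2), and it was -0.25 in Sal, -0.26 in PTZ0 and 0.06 in PTZ45. The ratio of Rgs14 to Pcp4, both per kilobase, was between 0.634 and 0.856 in controls and between 0.27 and 0.482 in CBP-ifKOs, without overlap. For Rgs14 over Amigo2 the ranges met, at 1.23 to 1.91 in controls and 0.779 to 1.23 in CBP-ifKOs, with medians of 1.77 and 0.99. The ratio of Rgs14 to Necab2, the 2 CA2 markers that fell most, was 72.5% of its control mean in CBP-ifKOs, with overlapping ranges. These ratios are given as a description, with no test.

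Among the CA3 markers, the ranges of Bok and Tspan18 overlapped widely between genotypes, and neither was called. Bok, a BCL2-family protein that promotes apoptosis (ENSMUSG00000026278, protein coding, chromosome 1, 93685660 to 93695764, plus strand), had a lowest, median and highest level of 291, 421 and 485 normalized counts in controls (n = 8) and of 331, 380.1 and 551 in CBP-ifKOs (n = 9). By DESeq2 it differed between genotypes by -0.03 on the log2 scale, with a 95% interval from -0.21 to 0.16 (adjusted p 0.879). Tspan18, a tetraspanin of the cell membrane (ENSMUSG00000027217, protein coding, chromosome 2, 93201760 to 93334505, minus strand), had 163, 196 and 229.6 in controls and 132, 202 and 239.8 in CBP-ifKOs. Its log2 fold change was -0.05, with a 95% interval from -0.25 to 0.14 (adjusted p 0.765 by DESeq2). A difference of the size found in Cpne4 lies outside both intervals in this fit, but with lane as a term the interval of Tspan18, from -1.11 to 0.07, includes it. Between the CA3 markers, Cpne4 over Bok, per kilobase, had a median of 1.13 in controls and 0.891 in CBP-ifKOs, and Cpne4 over Tspan18 of 10.3 and 7.61, with overlapping ranges in both cases.

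**Figure D2:**
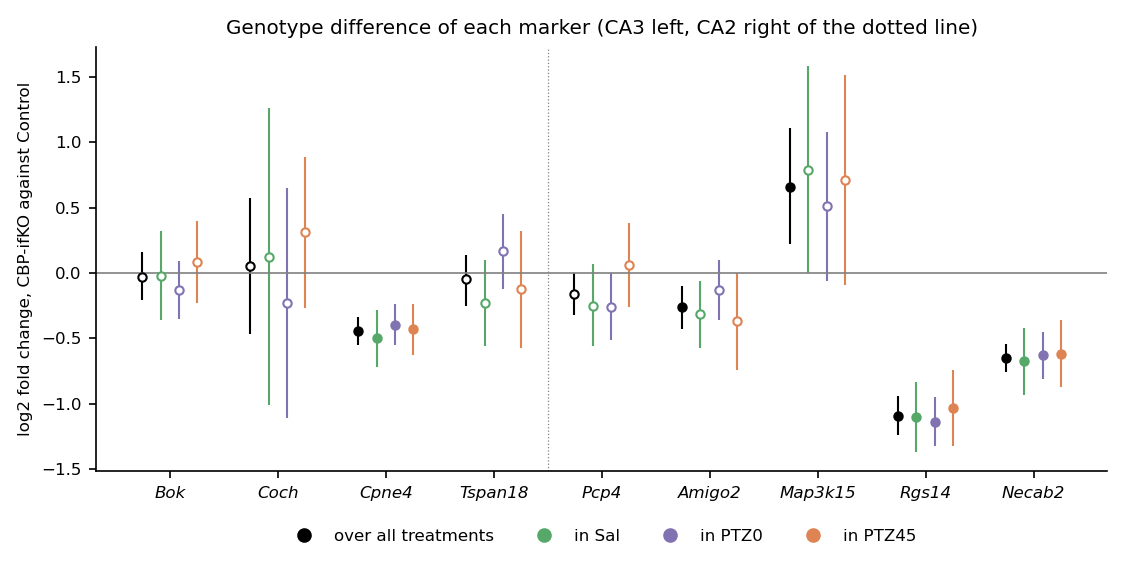
Log2 fold change of CBP-ifKO against Control for each marker (y axis, bars for the 95% interval from DESeq2), over all treatments and within Sal, PTZ0 and PTZ45. Filled points were called at an adjusted p under 0.05: Cpne4, Rgs14 and Necab2 in all 4 comparisons, Amigo2 and Map3k15 over all treatments only.

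For Map3k15 and Coch the 3 highest values came from libraries rich in choroid plexus RNA. Map3k15, a kinase at the head of a MAP kinase cascade (ENSMUSG00000031303, protein coding, chromosome X, 159988433 to 160123351, plus strand), had 28.8, 59.1 and 24.4 normalized counts in Control Sal and 106, 41.5 and 39.2 in CBP-ifKO Sal. In PTZ0 the controls had 38.6, 52.7 and 48.6 and the CBP-ifKOs 71.8, 43.9 and 82. In PTZ45 the controls had 33.6 and 40.2 and the CBP-ifKOs 41, 94 and 44.8. The ranges of the genotypes overlapped in Sal and in PTZ0. Across treatments DESeq2 put Map3k15 at 0.66 on the log2 scale (SE 0.23, adjusted p 0.0239), and within them it was 0.79 in Sal, 0.51 in PTZ0 and 0.71 in PTZ45, none of them called (adjusted p 0.467, 0.364 and 0.543 by DESeq2).

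The 5 libraries rich in choroid plexus RNA had between 52.7 and 106 normalized counts of Map3k15, and the other 12 had between 24.4 and 71.8, a ratio of means of 1.91. All 6 choroid plexus markers were detected in every library. Among the 12 libraries, controls had 35.7 ± 8.64 (SD, n = 6) and CBP-ifKOs 47 ± 12.3 (SD, n = 6), and the log2 fold change was 0.39 and not called (adjusted p 0.183 by DESeq2). With the choroid plexus level as a term over all 17 libraries it was 0.55 and called (adjusted p 0.00305 by DESeq2). Of 28 alternatives 11 ended the call, among them the omission of any 1 of Control Sal replicates 1 and 3, CBP-ifKO Sal replicate 1, Control PTZ0 replicate 1, CBP-ifKO PTZ0 replicate 3, Control PTZ45 replicate 1 and CBP-ifKO PTZ45 replicate 2, with log2 fold changes from 0.46 to 0.64. Of the exonic bases of Map3k15, 603 overlap Pdha1 on the opposite strand, a more abundant gene with 40529 counts in all, and whether the counting used strand is not stated, so some Map3k15 reads may be those of Pdha1.

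Coch, which encodes the secreted matrix protein cochlin (ENSMUSG00000020953, protein coding, chromosome 12, 51593341 to 51605771, plus strand), had 103, 108 and 68.7 normalized counts in Control Sal and 181, 70.6 and 52.5 in CBP-ifKO Sal. In PTZ0 it had 94.8, 114 and 118 in controls and 49.9, 80.2 and 147 in CBP-ifKOs. In PTZ45 it had 84.9 and 65.2 in controls and 70.4, 119 and 89.6 in CBP-ifKOs. The highest value of each CBP-ifKO group was that of its library rich in choroid plexus RNA. Across treatments Coch differed by 0.05 on the log2 scale, with a wide 95% interval from -0.47 to 0.57 (adjusted p 0.922 by DESeq2). In the 12 other libraries CBP-ifKOs had 68.9 ± 15.4 (SD, n = 6) against 89.1 ± 20.3 in controls (SD, n = 6), and the log2 fold change was -0.38 and not called (adjusted p 0.148 by DESeq2). Coch levels were between 108 and 181 in the 5 libraries and between 49.9 and 118 in the 12. For the other 7 members the ratio of the means of the 5 and the 12 libraries was between 0.89 and 1.04. The part of choroid plexus RNA in the levels of Map3k15 and Coch was not tested beyond these values.

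**Figure D3:**
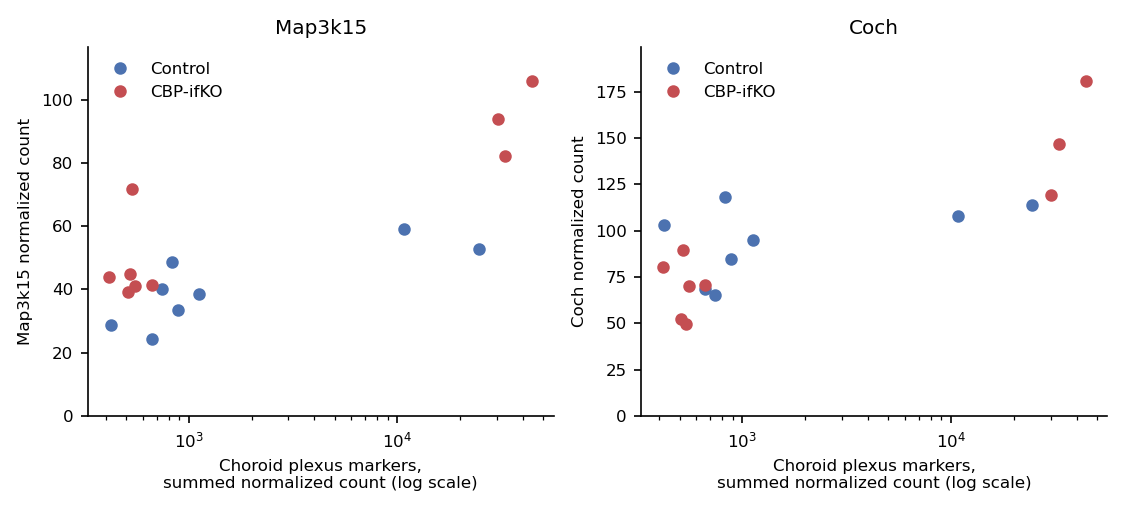
Normalized counts of Map3k15 (left) and Coch (right) in each of 17 libraries against the summed normalized count of 6 choroid plexus markers (x axis, log scale), Control in blue and CBP-ifKO in red. The 5 libraries to the right, at 10805 to 44309, hold 4 of the 5 highest Map3k15 values and the 3 highest Coch values.

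No change of the 9 markers with PTZ was detectable by DESeq2, in either genotype. In controls, 45 min after the last PTZ injection, log2 fold changes against Sal were between -0.31 (Coch) and 0.08 (Amigo2), and in CBP-ifKOs between -0.21 (Bok) and 0.19 (Pcp4). No member was called in controls, where 1.17% of all genes were, or in CBP-ifKOs, where 0.294% were, and no member had an unadjusted p under 0.05 in either comparison. Kindling without the last PTZ, PTZ0 against Sal, gave log2 fold changes between -0.14 (Tspan18) and 0.34 (Map3k15) in controls, which shared a lane, and between -0.14 (Coch) and 0.25 (Tspan18) in CBP-ifKOs. No member was called there either, with 0.00843% and 0.0112% of all genes called. For Rgs14 the log2 fold changes of PTZ45 against Sal were -0.16 (SE 0.11, controls) and -0.10 (SE 0.16, CBP-ifKOs), and for Cpne4 they were 0.05 (SE 0.10) and 0.11 (SE 0.11). Apart from Bok and Coch in the PTZ45 and PTZ0 controls, described next, no member had an unadjusted p under 0.05 in a treatment comparison or in the interaction, and edgeR called 0 members in each of these other comparisons. These treatment comparisons share their Sal or PTZ0 libraries and are not independent of each other.

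Among mice given the kindling injections, PTZ45 against PTZ0 called no member by DESeq2 in controls, where 1.25% of all genes were called. Nor did it in CBP-ifKOs on their shared lane, where 0.0872% were. In controls 2 members had an unadjusted p under 0.05, Bok and Coch. Bok had 485, 445 and 425 normalized counts in Control PTZ0 and 386 and 291 in Control PTZ45. DESeq2 put the log2 fold change at -0.41 (SE 0.14, p 0.00335, adjusted p 0.159). The quasi-likelihood test of edgeR called this difference (adjusted p 0.00206), whereas with the correction for GC content the log2 fold change was -0.24 (adjusted p 1 by DESeq2). Over its 12 alternatives the adjusted p of Bok was between 0.00206 and 1. In CBP-ifKOs Bok was at -0.20 (SE 0.12, adjusted p 1 by DESeq2). In DESeq2 fits without replicate 1 or 2 of Control PTZ45, which leave a single library in that group and assume that it varies like the PTZ0 libraries, the log2 fold change of Bok was -0.64 (adjusted p 0.00968) or -0.23 (adjusted p 1). All Control PTZ0 libraries were on lane 3 and both Control PTZ45 libraries on lane 4, so treatment and lane cannot be told apart here. The log2 fold change of Coch in controls was -0.53 (SE 0.25, adjusted p 0.527 by DESeq2).

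Whether the response to PTZ45 over Sal differed between genotypes was tested by an interaction term on 11 libraries. No member was called, where 0.329% of all genes were, and the smallest unadjusted p, 0.176, was that of Pcp4, with a log2 difference of 0.30 (SE 0.22). For Rgs14 the difference was 0.07 with a 95% interval from -0.35 to 0.48, for Necab2 0.05 from -0.30 to 0.41, and for Cpne4 0.06 from -0.24 to 0.36. The intervals for Coch, from -1.23 to 1.59, and Map3k15, from -1.70 to 1.58, were much wider, so that for these genes even a large difference in response was not detectable with this spread.

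To place these differences, other genes known to mark the same and neighbouring fields were examined in the genotype comparison over all treatments. DESeq2 called 11.5% of all genes lower there. Of 10 other CA3 markers, 4 were called lower by DESeq2 and none higher, with a median log2 fold change of -0.16. The 4 were Prss35, a secreted serine protease homologue, at -0.58 (SE 0.10), and Socs2, a suppressor of cytokine signalling, at -0.39 (SE 0.07). The others were Grik4, a kainate receptor subunit of mossy fibre synapses, at -0.18 (SE 0.06), and Elavl2, a neuronal RNA-binding protein, at -0.17 (SE 0.04). Of 11 other CA2 markers, 9 had an adjusted p and 4 were called lower, with none higher and a median of -0.18. These were Ntf3, the neurotrophin NT-3, at -0.65 (SE 0.14), Vit, the matrix protein vitrin, at -0.55 (SE 0.13), Ccdc3, a secreted coiled-coil protein, at -0.45 (SE 0.10), and Ptpn5, the striatal-enriched tyrosine phosphatase STEP, at -0.30 (SE 0.06). Without the 5 libraries rich in choroid plexus RNA, 3 of the 10 other CA3 markers and 4 of the 9 other CA2 markers tested were called lower. Of all genes, 7.86% were called lower there.

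The list for CA1, the neighbouring pyramidal field, held a larger share of lower genes, 9 of 11, against 11.5% of all genes. None was higher, and the median log2 fold change of the list was -0.31. Wfs1, an endoplasmic reticulum protein that labels dorsal CA1, fell most, at -1.11 (SE 0.07), followed by Mpped1 at -0.49 (SE 0.06) and Fibcd1 at -0.44 (SE 0.06). The others called were Man1a, Gpr161, Nrip3, Pou3f1, Ndst4 and Ccn3, between -0.24 and -0.34. Rgs14 and Necab2 fell more than 8 of these 9 CA1 markers by log2 fold change. Whether the fields differ from each other was not tested. In the 12 libraries with little choroid plexus RNA 8 of the 11 CA1 markers were called lower, against 7.86% of all genes.

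Some markers of interneurons and glia, in which the Camk2a promoter is not active, were also called lower by DESeq2, where 11.5% of all genes were. Among 8 interneuron markers these were Sst at -0.28 and Gad1 at -0.14, and among 6 astrocyte markers Slc1a3 at -0.18 and Gja1 at -0.11. Among 6 oligodendrocyte markers DESeq2 called 0 and edgeR 4 lower, and among 6 microglia markers both called 0. The medians of these 4 lists were -0.12, -0.09, -0.15 and -0.10, and without the 5 libraries rich in choroid plexus RNA they were -0.07, -0.04, -0.06 and -0.02, with 2 interneuron markers and 1 astrocyte marker called lower. Interneuron markers summed to 6842 to 7206 normalized counts in controls and 6128 to 6876 in CBP-ifKOs. These ranges overlapped through 1 CBP-ifKO PTZ0 library, and in Sal (6936 to 7059.7 against 6137 to 6555) and PTZ45 (7052 to 7206 against 6433 to 6736) they did not overlap. The sums of the glial lists overlapped between genotypes over all treatments, astrocyte markers at 14439 to 15857 in controls and 12916 to 15592 in CBP-ifKOs, although within Sal (14844 to 15410.3 against 12916 to 13975) and within PTZ0 (14811 to 15631 against 13307 to 14699) those of astrocytes did not. The microglia markers were at 2778 to 3237 and 2408 to 3314. The sums of the 5 CA2 members did not overlap, at 2094 to 2422 in controls and 1361 to 1624 in CBP-ifKOs. Nor did those of the 11 CA1 markers, at 14101 to 15024 and 10489 to 12066. Those of the 4 CA3 members met at 1874 to 2334 and 1459 to 1876. The other CA3 markers together overlapped at 5897 to 6583 and 5198 to 5983, and the other CA2 markers at 1472 to 1816 and 1376 to 1566. Within each treatment, however, the sums of the CA3 members, the CA2 members and the other CA3 markers did not overlap between genotypes. Those of the other CA2 markers overlapped in Sal and PTZ45 but not in PTZ0. The sum of the CA3 members is carried by Cpne4, with means of 1397 in controls and 1029 in CBP-ifKOs. Bok, Coch and Tspan18 had means of 411, 94.6 and 200.4 against 395, 95.5 and 193. In the sum of the CA2 members Rgs14 (891 and 417) and Necab2 (623 and 402) differed most.

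**Figure D4:**
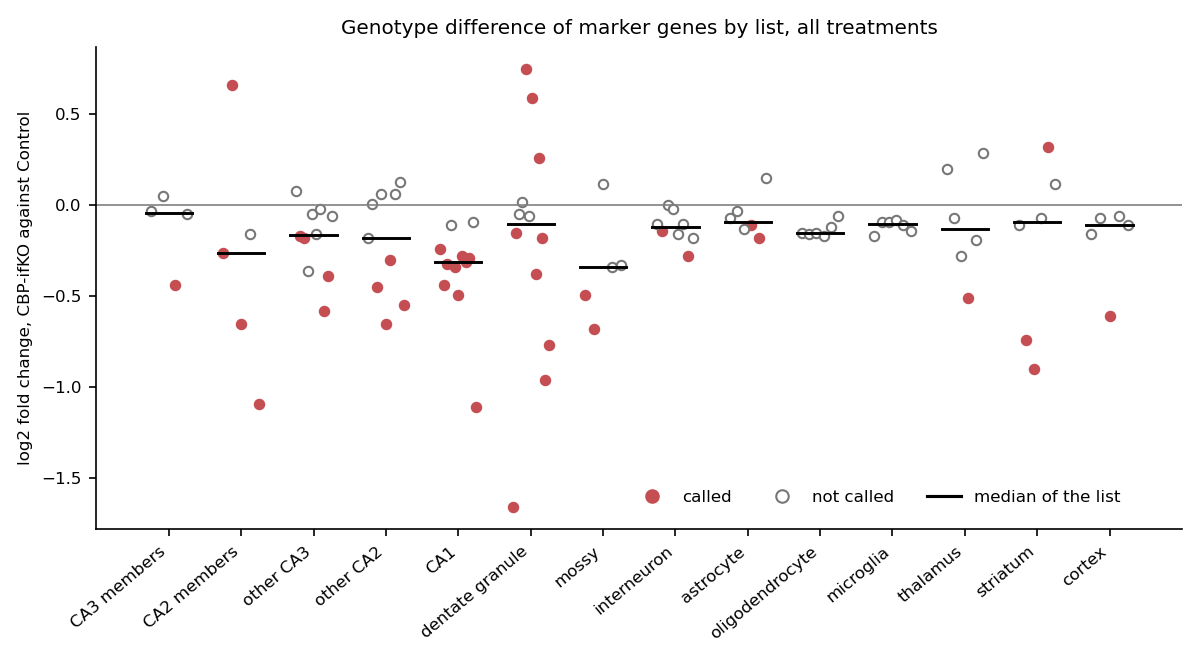
Log2 fold change of CBP-ifKO against Control over all treatments (y axis) for each tested gene of 14 marker lists (x axis), with called genes in red, genes not called in open grey and the list's median as a black bar. Of the CA3 and CA2 members, 5 of 9 are red, against 8 of 19 other CA3 and CA2 markers tested and 9 of 11 CA1 markers.

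The genotype comparison was repeated on scales set by the neighbouring cells. Scaled to the other CA3 and CA2 markers, which moved the median of all genes to 0.19, Rgs14 had a log2 fold change of -0.91, Necab2 of -0.46 and Cpne4 of -0.26, all called lower, where 2.42% of all genes were. Amigo2 was then at -0.08 and Pcp4 at 0.02, and neither was called. Scaled to the CA1 markers, which moved the median of all genes to 0.34, Rgs14 at -0.77 (SE 0.08) and Necab2 at -0.32 (SE 0.06) were called lower, as were 0.981% of all genes. On the same scale Cpne4 was at -0.11 (SE 0.06, adjusted p 0.0813 by DESeq2), Amigo2 turned to 0.06, and Bok at 0.30, Tspan18 at 0.27 and Map3k15 at 0.99 were called higher, as were 52.9% of all genes. This scaling moves all genes up alike, and the higher calls of Bok and Tspan18 lie within that general shift. Map3k15 lay above the shifted median of 0.34, with an interval from 0.44 to 1.55. Without this scaling Map3k15 was also called higher over all treatments, at 0.66, although 11 of 28 alternatives ended that call.

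The lanes bear on the same comparison. With lane as a term beside treatment and genotype, 0.78% of all genes were called lower. This fit has as many terms as groups. Its genotype term compares CBP-ifKO Sal with Control PTZ45 on lane 4. It adjusts this by PTZ0 against Sal in controls and by PTZ45 against PTZ0 in CBP-ifKOs. The fit thus assumes that treatment acts alike in both genotypes. Rgs14 at -0.99 (SE 0.23, adjusted p 0.00482) and Necab2 at -0.67 (SE 0.19, adjusted p 0.0468) were called, Cpne4 at -0.53 (SE 0.17, adjusted p 0.142) was not, and Amigo2 was at -0.55 (SE 0.25, adjusted p 0.66, all by DESeq2). The other members moved too, with wide errors, Bok to 0.19 (SE 0.28), Pcp4 to 0.08 (SE 0.25), Tspan18 to -0.52 (SE 0.30), Coch to 0.67 (SE 0.85) and Map3k15 to a value with an interval from -0.38 to 2.38, and none of them was called. Lane 4 alone held both genotypes, 3 CBP-ifKO Sal and 2 Control PTZ45 libraries, which also differ in treatment. The fit with lane as a term compares these same libraries and is not independent of a fit of lane 4 alone. There Rgs14 at -0.94 (SE 0.16, adjusted p 1.39e-06), Necab2 at -0.70 (SE 0.16, adjusted p 0.00052) and Cpne4 at -0.55 (SE 0.13, adjusted p 0.00191) were called lower by DESeq2, where 3.05% of all genes were.

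**Figure D5:**
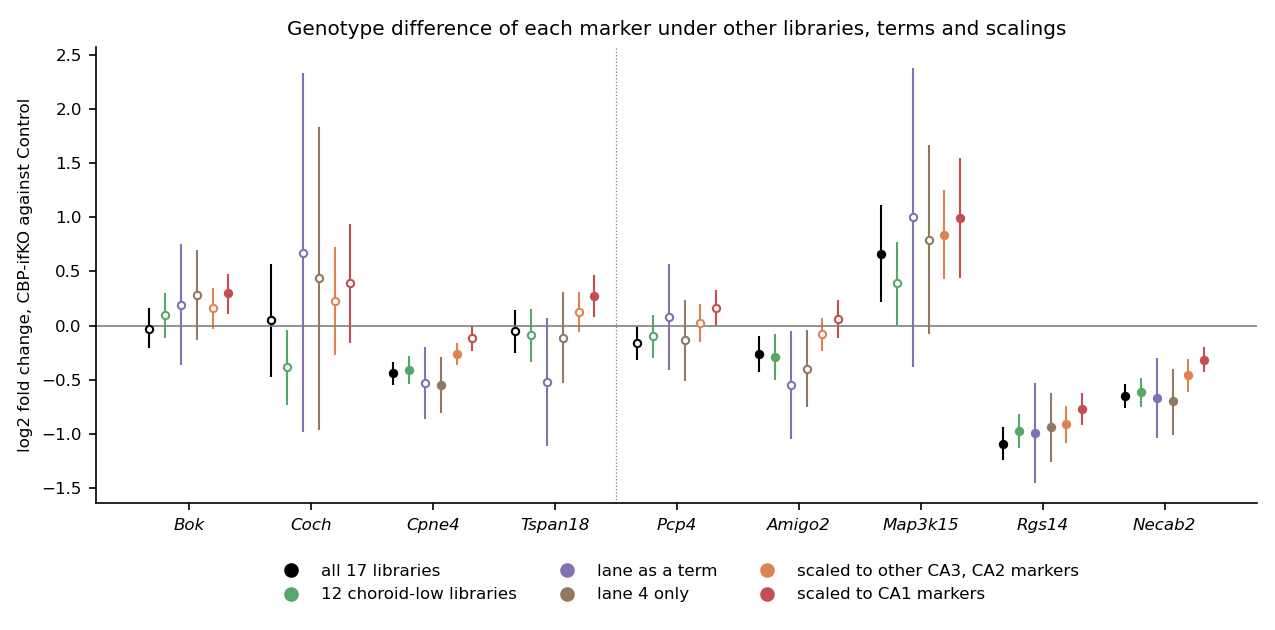
Log2 fold change of CBP-ifKO against Control for each marker (y axis, bars for the 95% interval from DESeq2) in all 17 libraries, in the 12 with little choroid plexus RNA, with lane as a term, on lane 4 alone, and scaled to other CA3 and CA2 or to CA1 markers. Filled points were called at an adjusted p under 0.05: Rgs14 and Necab2 in each of the 6 fits, Cpne4 in 4, Map3k15 in 3 (all libraries and both scalings), Amigo2 in 2 (all libraries and the 12), and Bok and Tspan18 when scaled to CA1 markers.

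Within groups, some members moved together from library to library. After removal of group means, log2 levels of Bok correlated with those of Cpne4 (Pearson's r 0.69) and Pcp4 (0.70), and Cpne4 with Pcp4 (0.63), across 17 libraries, and with r of 0.70, 0.68 and 0.61 across the 12 libraries with little choroid plexus RNA. Leaving out 1 library gave r between 0.41 and 0.81, 0.48 and 0.83, and 0.40 and 0.75. Tspan18 had r of -0.07 with Bok, 0.02 with Cpne4 and -0.25 with Pcp4 (17 libraries). Across 17 libraries Bok and Pcp4 had r of 0.62 and 0.66 with the mean of the microglia markers, and Rgs14 had 0.75. With the mean of the other CA3 markers Bok and Pcp4 had r of 0.01 and -0.09, but 0.62 and 0.34 across the 12 libraries. With that of the other CA2 markers they had -0.18 and -0.24, but 0.63 and 0.16 across the 12. Cpne4 had 0.41 and 0.80 with the other CA3 markers and 0.03 and 0.32 with the other CA2 markers (17 and 12 libraries). With the mean of the cortex markers Bok, Cpne4 and Pcp4 had r of -0.52, -0.65 and -0.80 across 17 libraries. Rgs14 and Necab2, both CA2 markers that fell, did not move together (r 0.08 across 17 libraries and -0.68 across the 12). Map3k15 and Coch fall into 2 clusters of libraries by the choroid plexus level, so no pooled correlation is given for them. Across the 12 libraries their r was -0.26, and that of Coch was -0.20 with Bok and -0.23 with Cpne4. These are descriptions without a test, since the libraries share lanes and scaling.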

How the data were processed

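Hippocampal RNA was sequenced in 17 libraries of 6 groups. The authors trimmed single-end reads of 50 bases (Trim Galore 0.6.4, FastQC 0.11.8 for quality), aligned them to GRCm38 with STAR 2.6.1, kept reads with a mapping quality above a minimum, and deposited raw counts per gene over Ensembl exons, made with Rsubread. Whether the counting used strand is not given in the sources used here. The submitters' processing notes also name DESeq2 1.30.1. Of the 18 count columns, 1 had a name that fits no sample's labels and was left out. Symbols, positions, exon lengths and GC content were taken from GENCODE M21 (GRCm38), which held 99.6% of the gene IDs, and promoter sequences from RefSeq. Total counts were between 5831992 and 18735643 per library.

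Genes with at least 1 count were fitted with DESeq2 1.42.0 in R 4.3.3 (Wald test, Benjamini-Hochberg adjusted p under 0.05 over all genes, defaults otherwise), genotype with treatment as a term on all libraries, and each other comparison on its own libraries. Genes that DESeq2 left without an adjusted p were not counted as tested. Intervals are 95% Wald intervals. The script was tested on simulated counts. Alternatives were edgeR 4.0.16 (quasi-likelihood), TMM size factors, a minimum of 10 counts in 2 libraries, a loess correction for GC content, the replicate number as a block, 1 fit of all libraries, lane as a term, scaling to marker lists and leaving out each library. The choice of lane 4 alone, of the 12 libraries with under 5000 summed normalized counts of choroid plexus markers, and of the choroid plexus level as a term was made after seeing the data. Every member is named in each comparison, other CA3, CA2 and CA1 markers and those of other cell types where called for genotype over all treatments. The members and lists were chosen with earlier results of these data known. A gene of another list is not reported here.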

Additional observations from a re-analysis of the deposited data

How the results depend on the processing

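Of 700 values recomputed under alternatives, 642 kept their direction and their side of the threshold or, for counts of members, stayed within 1.5 times the main count, so that a single member may have crossed the threshold. Rgs14 and Necab2 were called for genotype over all treatments in all 28 alternatives, Cpne4 in all but 2, Amigo2 in all but 5 and Map3k15 in all but 11. Against 5 members called there, 2 were called with lane as a term, 3 on lane 4 alone and 3 to 5 when 1 library was left out, the 3 without Control PTZ45 replicate 1. Against 3 members called in Sal, 1 was called in the 12 libraries with little choroid plexus RNA, and 2 to 3 when 1 library was left out. Against 3 in PTZ45, 1 to 3 were called when 1 library was left out, the 1 being without Control PTZ45 replicate 1. Leaving out either Control PTZ45 library leaves 1 sample in that arm, which is then assumed to vary like the other group. Against 0 for PTZ45 over PTZ0 in Control, edgeR called 1, and 0 to 1 were called when 1 library was left out.

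Signs turned for some members. The scalings to marker lists moved the median of all genes to 0.19 and 0.34, so signs that turn under them follow from that shift. The log2 fold change of Bok over all treatments was 0.06 with the GC correction, 0.10 in the 12 libraries, 0.19 with lane as a term, 0.28 on lane 4 alone, 0.16 and 0.30 when scaled to other CA3 and CA2 or to CA1 markers, and -0.12 to 0.02 when 1 library was left out. That of Coch was -0.38 in the 12 libraries, -0.10 with the choroid plexus level as a term, and -0.17 to 0.17 when 1 library was left out. That of Tspan18 was -0.52 with lane as a term, 0.13 and 0.27 under the same 2 scalings and -0.10 to 0.00 when 1 library was left out. That of Pcp4 was 0.08 with lane as a term, and 0.02 and 0.16 under the scalings, and that of Amigo2 was 0.06 when scaled to CA1 markers. Where no cause follows from the alternative's construction, the cause was not tested.

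The replicate numbers did not pair the samples: same-numbered samples of 15 pairs of groups had correlations of deviations from -0.38 to 0.33, and every one was over 0.1 in 1 pair of groups only. With the replicate block 1 member was called in PTZ45, and Necab2 (-0.61, adjusted p 0.35) and Cpne4 (-0.44, adjusted p 0.483) were not called there by DESeq2. Genes called for genotype over all treatments numbered 3606, and 131 with lane as a term, 13338 scaled to CA1 markers and 1870 in the 12 libraries. In Sal they numbered 306, and 828 with edgeR, 122 with the block, 80 in the 12 libraries and 127 to 620 when 1 library was left out, and 614 in 1 fit of all libraries. In PTZ0 they numbered 852, with alternatives from 160 to 1428, and in PTZ45 468, with alternatives from 102 to 972. The treatment comparisons had wide ranges too: 204 and 73 to 607 for PTZ45 over Sal in Control and 58 and 16 to 218 in CBP-ifKO, 225 and 94 to 773 for PTZ45 over PTZ0 in Control and 23 and 8 to 101 in CBP-ifKO, 3 and 0 to 85 for PTZ0 over Sal in Control and 4 and 0 to 21 in CBP-ifKO, and 69 and 36 to 121 for the interaction, edgeR giving the highest count in each. At total counts from 5831992 up, Map3k15 and Coch limit the precision most.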

Other observations

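Dentate granule cells, whose mossy fibres excite CA3 pyramidal cells, showed differences in both directions between genotypes over all treatments. Of 12 granule cell markers, DESeq2 called 6 lower and 3 higher, where 11.5% and 7.76% of all genes were, with a median log2 fold change of -0.11. Without the 5 libraries rich in choroid plexus RNA 4 were called lower and 3 higher. C1ql2, a complement-related protein that mossy fibres release, had the lowest value of the list, -1.66 (SE 0.10, adjusted p 2.02e-59), followed by Tdo2, which breaks down tryptophan, at -0.96 and the cation channel gene Trpc6 at -0.77. Prox1, the transcription factor that defines granule cells, was called higher at 0.26 (SE 0.06, adjusted p 0.000439 by DESeq2), as were Lct at 0.75 and Npnt at 0.59. The summed level of the list overlapped between genotypes, at 8472 to 10537 normalized counts in controls and 8370.1 to 9755 in CBP-ifKOs. Mossy cells, the excitatory cells of the hilus, had 2 of 5 markers called lower, Calb2 at -0.68 and Ajap1 at -0.49, and their sums did not overlap, at 679 to 802 in controls and 461 to 589 in CBP-ifKOs. Of the markers of neighbouring tissue, Rgs16 of the thalamus list was at -0.51, Drd1 and Rgs9 of the striatum list at -0.74 and 0.32, and Lamp5 of the cortex list at -0.61, all called by DESeq2. How far tissue beyond the hippocampus entered the libraries was not tested.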
